A study of Mus musculus with 20 samples.

Results

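The vomeronasal receptor genes on the array were taken as every autosomal probe, controls left out, whose gene name starts with Vmn1r or Vmn2r. They comprised 88 of 20325 autosomal gene names, 7 of them Vmn1r and 81 Vmn2r, read by 207 of 161460 autosomal probes. Of these genes, 29 had 1 probe, 59 had at least 2 and 31 had at least 3. RefSeq (GRCm38.p6 table) matched 86 of the names, 85 as protein coding genes and 1, Vmn2r-ps11, as a transcribed pseudogene, while Vmn2r68-ps and Vmn2r72-ps had no match. That table lists 231 protein coding Vmn1r and 124 Vmn2r genes, so the array names only a small share of the Vmn1r family. A single member on the X chromosome (1 gene) was left out. Members less than 1 Mb apart were joined, which gave 12 clusters of at least 2 genes (81 genes, 191 probes) and 7 genes that stood alone, on 7 chromosomes.

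The values are DNA copy number from comparative genomic hybridisation, in which tumour DNA (Cy5) and kidney DNA (Cy3) compete for the probes of 1 array. Each of 20 malignant mesotheliomas, cancers of the lining of the body cavities, had 1 array. All mice had received crocidolite, an iron-rich asbestos, 2 times into the peritoneum (1.5 mg at 6 and at 7 weeks, 3 mg in all), and were observed over 600 to 700 days. A value is log2 of tumour over kidney after centring each array on its autosomal median, so 0 is that array's median and a value above 0 is relatively more signal from the tumour.

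The labels divide the wild-type tumours into a set tied to Dmt1, called WT_Dmt1 here (n = 4), and a set with no such mark, called WT_plain (n = 3). The other groups were Dmt1Tg (n = 4), from mice with a transgene of the iron transporter Dmt1, and MutyhKO, Ogg1KO and Mth1KO (n = 3 each), from mice lacking an enzyme that guards DNA against oxidised guanine. Ogg1 removes that base from DNA, Mutyh removes adenine paired with it, and Mth1 breaks down oxidised purine nucleotides. The labels describe the kidney DNA as C57BL/6 and give it the genotype of the tumour. The strain of the mutant mice, the promoter of the transgene and whether each tumour had its own animal are not given in the sources used here, so a p-value speaks only of how far these samples scatter, which may be technical. The WT_Dmt1 arrays shared slide 1 and the Dmt1Tg arrays slide 2, with scanning on day 1, and WT_plain lay on slide 3, scanned on day 2 with the 3 knockout groups, so set, slide and day cannot be told apart between the wild-type sets. Noise, taken from differences between adjacent probes, was lowest in MutyhKO 1 (0.216 log2 units) and highest in WT_Dmt1 1 (0.535), and a patch of the surface covered 15.95% of the spots of WT_plain 1 and 7.02% of those of WT_plain 2, which were left out. The member probes with a value numbered 176 of 207 in WT_plain 1, 191 in WT_plain 2 and 204 to 207 in the other 18 tumours. The number of arrays, 3 or 4 in a group, limits precision.

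Vomeronasal receptors are G protein coupled receptors of the sensory neurons of the vomeronasal organ, through which mice detect pheromones and other chemical cues. Vmn1r receptors are short, signal through the G protein subunit encoded by Gnai2 and mostly read small molecules, whereas Vmn2r receptors carry a large extracellular domain, signal through Gnao1 and read peptides and proteins. Both families grew by tandem duplication, so their members lie in dense clusters of similar copies, and they are not known for a role in the mesothelium. Only their DNA was measured here, not their expression.

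Because members of a cluster resemble each other, the member probes were compared with each other. The sequences of the genes themselves were not searched. The comparison therefore cannot show whether a probe also binds a neighbouring member. The 207 member probes had 207 distinct sequences, 192 of them 60 bases long and the shortest 45. Over the 21072 pairs of probes to different members, on either strand, the longest exact shared run was 16 bases. The pair that holds it and the pair with the next longest run, of 14 bases on opposite strands, are shown with the shared run in capitals. The positions, on build mm9, are chr6:124005298-124005357 for Vmn2r26, chr7:93316257-93316316 for Vmn2r75, chr7:48700413-48700472 for Vmn2r57 and chr17:17840918-17840977 for Vmn2r90, and the strand of the printed letters is not given in the sources used here.
Vmn2r26 probe 1: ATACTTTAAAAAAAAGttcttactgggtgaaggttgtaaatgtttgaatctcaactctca
Vmn2r75 probe 2: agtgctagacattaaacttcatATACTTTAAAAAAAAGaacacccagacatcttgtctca
Vmn2r57 probe 4: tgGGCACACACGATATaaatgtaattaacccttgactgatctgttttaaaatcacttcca
Vmn2r90 probe 1: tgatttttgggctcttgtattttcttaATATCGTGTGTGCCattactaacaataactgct
The first pair was the only 1 that shared at least 15 bases, and the median over probes of the longest run shared with another member was 10 bases. Matches with mismatches, and matches to the rest of the genome, were not analysed here, nor was whether a probe lies in an exon or an intron.

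The following probes carry the extreme values and the differences described further on, with G and C in capitals, since base composition moved with the values. They lie, in the order printed, at chr5:109767888-109767947, chr5:109776432-109776491, chr5:109790608-109790667, chr7:49127107-49127166, chr7:13203062-13203121, chr17:20711948-20712007, chr17:20719853-20719912, chr17:20728018-20728077, chr7:93018409-93018468 and chr5:109232808-109232856 on mm9.
Vmn2r16 probe 1: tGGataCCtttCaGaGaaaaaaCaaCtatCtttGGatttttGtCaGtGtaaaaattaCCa
Vmn2r16 probe 2: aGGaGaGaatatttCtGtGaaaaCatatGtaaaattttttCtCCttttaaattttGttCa
Vmn2r16 probe 3: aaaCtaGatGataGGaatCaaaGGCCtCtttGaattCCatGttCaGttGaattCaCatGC
Vmn2r58 probe 1: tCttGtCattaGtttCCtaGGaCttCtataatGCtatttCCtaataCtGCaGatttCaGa
Vmn2r54 probe 1: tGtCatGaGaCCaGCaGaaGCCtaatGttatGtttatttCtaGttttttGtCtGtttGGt
Vmn2r110 probe 1: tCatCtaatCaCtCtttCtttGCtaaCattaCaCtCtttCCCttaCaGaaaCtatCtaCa
Vmn2r110 probe 2: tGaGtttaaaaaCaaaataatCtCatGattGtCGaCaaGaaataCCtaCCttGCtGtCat
Vmn2r110 probe 3: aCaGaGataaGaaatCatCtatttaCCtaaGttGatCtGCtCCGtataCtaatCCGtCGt
Vmn2r73 probe 1: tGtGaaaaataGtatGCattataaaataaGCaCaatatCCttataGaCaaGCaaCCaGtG
Vmn2r8 probe 1: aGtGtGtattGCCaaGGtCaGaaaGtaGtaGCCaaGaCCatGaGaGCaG
G and C made up 23.3% of the second Vmn2r16 probe, 30% of the Vmn2r73 probe, 35% of the Vmn2r54 probe and 46.9% of the Vmn2r8 probe, which at 49 bases is among the short ones. The median G and C share was 35% over member probes and 36.7% over all autosomal probes.

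Most vomeronasal receptor genes had a mean log2 ratio slightly above the array median. Over the 20 tumours the mean was above 0 for 74 of 88 members, which is 84.1%, beside 36.1% of all 20325 genes (7334 genes). The members' median was 0.16, with quartiles at 0.05 and 0.24 and a range from -0.38 to 1.02, and the median over all genes was -0.10. The 7 Vmn1r genes had a median of 0.18 with 6 above 0, and the 81 Vmn2r genes a median of 0.15 with 68 above 0. The same direction was seen in 2 sets outside the family: the 66 olfactory receptor genes on the array, which also lie in clusters, had a median of 0.19 with 50 above 0, and the 52653 autosomal probes with no gene name had a median of 0.06 with 60.2% above 0. These shares describe the array and call nothing particular to the family.

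The count moved with the choice of signal. With normexp on the mean and background signals in place of the scanner's processed signal, which changes the background step together with detrending and dye normalisation, 43 of 88 members were above 0 and their median was -0.00, while all genes stayed at 36.1% above 0 with a median of -0.08. In the other settings run on all members the count lay between 70, with centring on the mode, and 74. Where the kidney channel was required to be well above background on every array, 47 of 54 remaining members were above 0, and among the 31 members with at least 3 probes 28 were, beside 43.0% of all 9087 such genes.

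**Figure D1:**
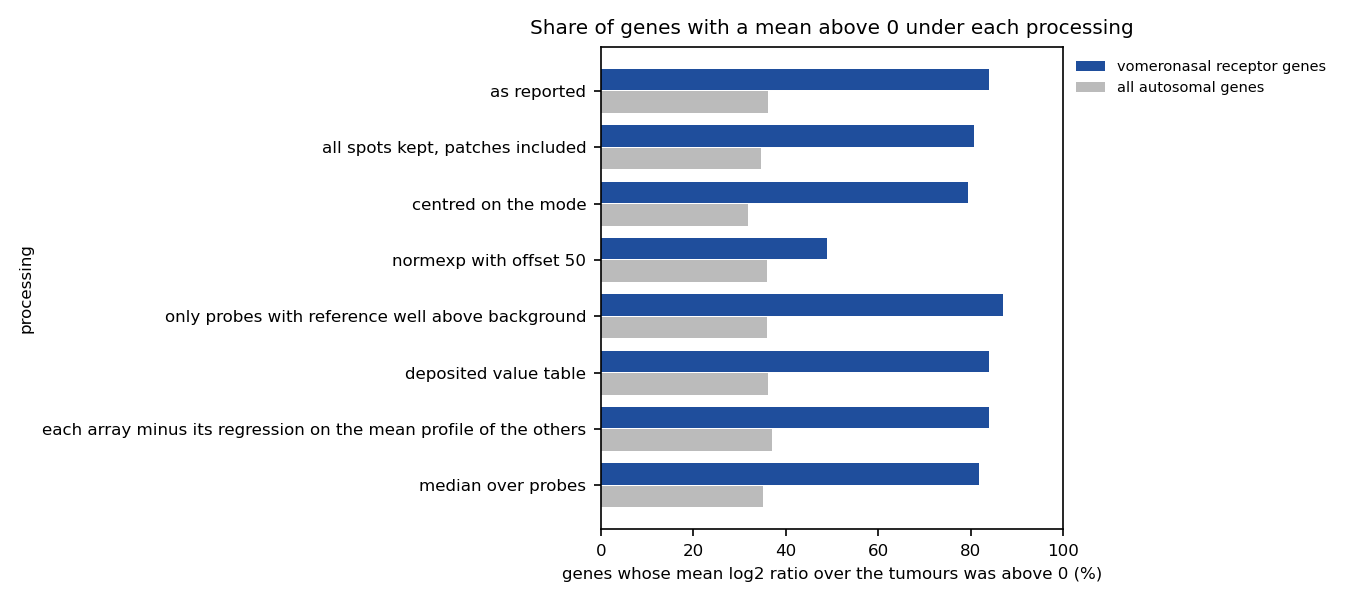
Share of genes whose mean log2 ratio over the tumours was above 0 (x axis, percent) under each processing (y axis), for the vomeronasal receptor genes (blue bars) and all autosomal genes (grey bars). The blue bar is at 84.1% as reported and at 48.9% with normexp, while the grey bar is at 36.1% in both.

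Tumour by tumour, the median over members was lowest in Dmt1Tg 2 (-0.03) and highest in WT_plain 2 (0.27), and it was above 0 in 19 of 20 tumours. The median over all genes was above 0 in 1 of 20, WT_Dmt1 1. Members spread a little more over tumours than other genes, with a median SD of 0.27 beside 0.23. The noisiest array, WT_Dmt1 1, was the highest tumour for 20 members and the lowest for 14, so it set an end of the range for 34 of 88 genes. When WT_Dmt1 1, WT_plain 1 and WT_plain 2 were left out, a choice made after seeing the data, 69 members were above 0 with a median of 0.16.

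Brightness moved with these values. The median kidney-channel signal was 9.24 log2 units over member probes and 9.85 over all autosomal probes, and 87 of 207 member probes (42.0%) fell among the dimmest 25% of all probes, beside 15 (7.25%) among the brightest 25%. From the dimmest to the brightest of these 4 classes the median mean log2 ratio was 0.08, 0.20, 0.19 and 0.27 over member probes and 0.06, 0.02, 0.03 and -0.01 over all probes. The median SD over tumours ran from 0.45 to 0.25 in members and from 0.45 to 0.23 in all probes over the same classes, so members spread about as much as other probes of their brightness. By base composition, member probes under 30% G and C had a median of -0.13 beside -0.15 over all probes, those from 35% to 40% had 0.20 beside 0.03, and those from 40% to 45% had 0.19 beside 0.02. The kidney signal was well above background on all 20 arrays for 75 of 207 member probes, on fewer than 10 arrays for 33 and on no array for 3. The part of brightness and base composition in the members' level was not tested.

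**Figure D2:**
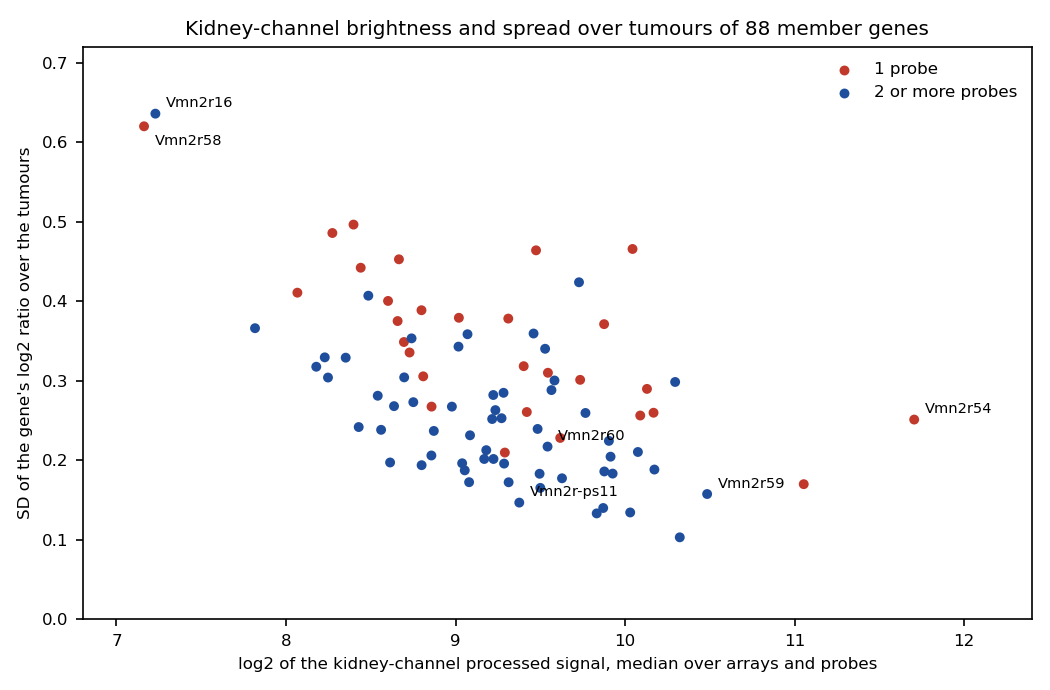
Each point is 1 of the 88 members, placed by its kidney-channel signal (x axis, log2, median over arrays and probes) and by the SD of its log2 ratio over the tumours (y axis), with genes read by 1 probe in red and by at least 2 in blue. The dimmest members, Vmn2r58 and Vmn2r16, have the widest spread (SD 0.62 and 0.64), and the brightest, Vmn2r54, has an SD of 0.25.

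Genes with the same direction in every tumour were few. Of 88 members, 7 were above 0 in every tumour with a value and 0 were below 0 in all. The 7 were Vmn2r13, Vmn2r54, Vmn2r58, Vmn2r83, Vmn2r100 and Vmn2r116 in 20 tumours each and Vmn2r8 in the 17 tumours that had a value. They were singled out after their values were seen. A mean of at least 0.3 in size was reached by 18 of 88 members. Over all genes the quartiles of the mean were -0.31 and 0.07, so means of that size are not particular to the family. The share of all genes above 0 in every tumour is not given here, so nothing particular to the family is read from the 7.

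Vmn2r58 (chromosome 7, 1 probe) had the highest mean, 1.02 ± 0.62 (SD, n = 20), with the lowest tumour at 0.14 (Ogg1KO 3), the median at 0.88 and the highest at 2.28 (Dmt1Tg 2). Its kidney signal was well above background on 4 of 20 arrays, the tumour signal on 19, so the ratio divides by a signal near background. Vmn2r54, also with 1 probe but the brightest of the member genes by median kidney signal (11.71 log2 units), had a mean of 0.49 ± 0.25, from 0.03 (Ogg1KO 3) through a median of 0.38 to 0.89 (MutyhKO 2). Both channels of that probe were well above background on all 20 arrays, and every tumour was above 0. Vmn2r8 ran from 0.02 (MutyhKO 2) through 0.47 to 2.14 (WT_Dmt1 1), and its second highest tumour, Ogg1KO 3, was at 0.63.

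Among members with at least 2 probes, Vmn2r55 was highest at 0.69 ± 0.34 (SD, n = 20), from -0.02 in Ogg1KO 3 through 0.68 to 1.21 in WT_plain 1. Its 2 probes stood apart: the first, with a kidney signal of 11.49, averaged 0.33, and the second, with a kidney signal of 6.55 that was well above background on 1 array, averaged 1.04. Vmn2r116, which encodes a receptor for the male tear peptide ESP1, averaged 0.48 ± 0.30, from 0.07 (Dmt1Tg 2) through 0.43 to 1.28 (Ogg1KO 2). Vmn2r83 averaged 0.46 ± 0.27, from 0.06 (Dmt1Tg 2) through 0.38 to 0.99 (Mth1KO 2). The next members by mean were Vmn2r56 at 0.39 ± 0.42, Vmn2r101 at 0.38 ± 0.33 and Vmn2r100 at 0.37 ± 0.24. Neighbours in this order differed by less than the SD of either gene.

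At the other end, Vmn2r16 had the lowest mean, -0.38 ± 0.64 (SD, n = 20), and the widest range of any member with at least 2 probes. It ran from -1.64 in Ogg1KO 2 through a median of -0.16 to 0.74 in Ogg1KO 3, so both ends lay in the same genotype. The kidney signal of its 3 probes was well above background on 1, 0 and 8 of 20 arrays, and the second probe, the one with 23.3% G and C, averaged -0.74 while probe 3 averaged -0.09. Vmn2r15, its neighbour, averaged -0.35 ± 0.33 and was above 0 in 3 of 20 tumours. Vmn2r91 averaged -0.28 ± 0.30, Vmn2r78 -0.24 ± 0.24, Vmn2r1 -0.15 ± 0.41 and Vmn2r93 -0.12 ± 0.27. Vmn2r1, a member of the small group of Vmn2r genes that basal vomeronasal neurons express broadly, ran from -0.97 in MutyhKO 2 to 0.63 in WT_Dmt1 1, and its 2 probes averaged 0.09 and -0.35. The remaining genes with wide ranges were Vmn2r56 (from -0.14 in WT_plain 3 to 1.72 in WT_Dmt1 1), Vmn2r77 (from -0.58 in MutyhKO 3 to 0.99 in WT_plain 2), Vmn2r111 and Vmn2r110. The value of Vmn2r77 in WT_plain 2 comes from 1 of its 3 probes.

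**Figure D3:**
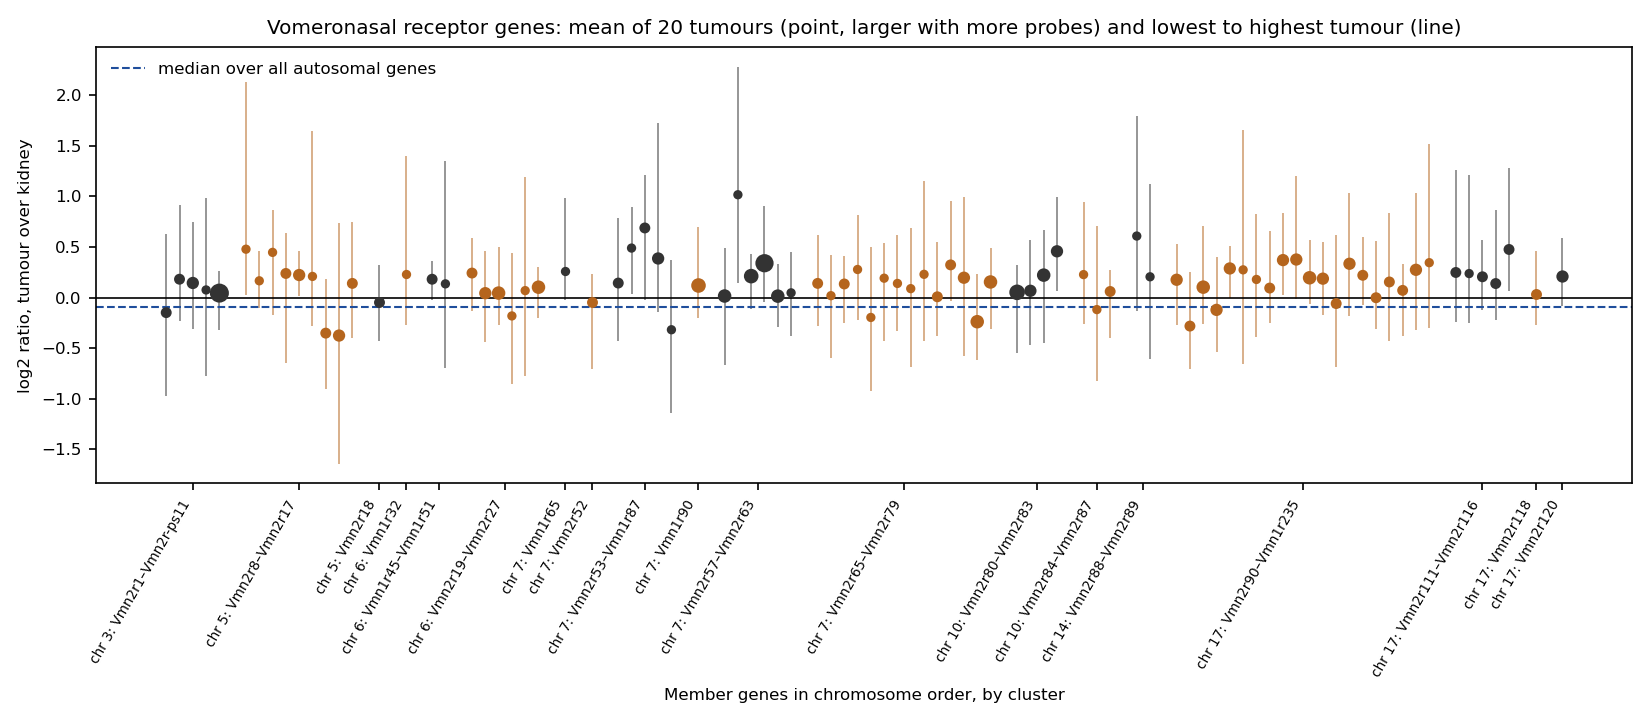
Log2 ratio of tumour over kidney (y axis) for the 88 members in chromosome order (x axis), as the mean over the tumours (point, larger with more probes) and the range from the lowest to the highest tumour (line). Black and orange alternate between clusters, and the dashed line is the median over all genes at -0.10. The quartiles of the points are 0.05 and 0.24, and the lines of all members but the 7 that were above 0 in every tumour with a value cross 0.

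The Vmn1r genes were thinly covered. Vmn1r90 (chromosome 7, 15148277 to 15194244), with the most probes of its family (5), averaged 0.13 ± 0.18 (SD, n = 20), from -0.20 in WT_Dmt1 2 through 0.10 to 0.69 in WT_Dmt1 1. The ends of its range therefore lay in the same wild-type set. Vmn1r32 (1 probe) averaged 0.23 ± 0.37 with WT_Dmt1 1 at 1.40, and Vmn1r65 (1 probe) averaged 0.26 ± 0.23 with WT_Dmt1 1 at 0.99. Vmn1r45 (2 probes) averaged 0.18 ± 0.10, the narrowest spread of any member, and was above 0 in 19 of 20 tumours. Its neighbour Vmn1r51 (1 probe) averaged 0.14 ± 0.38. Vmn1r235 (1 probe) averaged 0.34 ± 0.41, and Vmn1r87 (1 probe) was the only Vmn1r gene with a mean below 0, at -0.32 ± 0.39. In 6 of these 7 genes, all but Vmn1r45, the highest tumour was WT_Dmt1 1.

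The clusters held Vmn2r genes almost throughout, and the mean over all probes of a cluster was above 0 in 12 of 12. Under normexp it was above 0 in 5 of 12. The large cluster on chromosome 17, from Vmn2r90 to Vmn1r235 (17840918 to 21399591, 20 genes, 49 probes), averaged 0.16 ± 0.10 (SD, n = 20), from -0.03 in Dmt1Tg 2 to 0.37 in WT_plain 2, and was above 0 in 19 tumours. At its ends, Vmn2r90 averaged 0.18 ± 0.19 and Vmn1r235 0.34 ± 0.41. The cluster beyond it, from Vmn2r111 to Vmn2r116 (22697588 to 23532465, 5 genes, 9 probes), averaged 0.26 ± 0.18, from -0.04 (Dmt1Tg 2) to 0.66 (WT_Dmt1 1), and holds Vmn2r115 (0.14 ± 0.24), which encodes a receptor for the juvenile peptide ESP22. Dmt1Tg 2 was the lowest tumour in both.

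On chromosome 7 the cluster from Vmn2r53 to Vmn1r87 (13168871 to 13717392, 5 genes, 9 probes) averaged 0.33 ± 0.20 (SD, n = 20), from -0.05 in Ogg1KO 3 to 0.92 in WT_Dmt1 1. Its first gene, Vmn2r53, averaged 0.14 ± 0.32 and its last, Vmn1r87, -0.32 ± 0.39, so neighbours within 1 cluster lay on either side of 0. The cluster from Vmn2r57 to Vmn2r63 (48663622 to 50170340, 6 genes, 24 probes) averaged 0.22 ± 0.14, from -0.03 in WT_Dmt1 4 to 0.54 in Ogg1KO 2. Its members differed among themselves: Vmn2r57 and Vmn2r63 at its ends averaged 0.01 ± 0.28 and 0.05 ± 0.21, as did Vmn2r61 between them at 0.01 ± 0.20 (4 probes), while Vmn2r60, with 9 probes, averaged 0.34 ± 0.22. The cluster from Vmn2r65 to Vmn2r79 (92089711 to 94176615, 14 genes, 26 probes) averaged 0.08 ± 0.14, from -0.13 in Dmt1Tg 2 to 0.39 in WT_plain 2, with Vmn2r65 at 0.14 ± 0.26 and Vmn2r79 at 0.15 ± 0.19.

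On chromosome 3 the cluster from Vmn2r1 to Vmn2r-ps11 (63893202 to 64646665, 5 genes, 18 probes) averaged 0.06 ± 0.14, from -0.23 in MutyhKO 2 to 0.30 in WT_Dmt1 1. Vmn2r-ps11, read by 10 probes, the most of any member, averaged 0.04 ± 0.15 and was above 0 in 13 of 20 tumours. On chromosome 5 the cluster from Vmn2r8 to Vmn2r17 (109232808 to 109873898, 9 genes, 16 probes) averaged 0.05 ± 0.17, and both its lowest tumour (-0.24, Ogg1KO 2) and its highest (0.41, Ogg1KO 3) were Ogg1KO. Vmn2r17 at its end averaged 0.14 ± 0.37. With the surface patches kept, the mean of this cluster was -0.00.

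On chromosome 6 the cluster from Vmn2r19 to Vmn2r27 (123267874 to 124181039, 6 genes, 15 probes) averaged 0.07 ± 0.10, from -0.18 in WT_Dmt1 4 to 0.20 in Ogg1KO 2, with Vmn2r19 at 0.24 ± 0.18, Vmn2r27 at 0.10 ± 0.14 and Vmn2r26, which encodes a receptor that responds to peptide ligands of MHC molecules, at 0.07 ± 0.44. On chromosome 10 the cluster from Vmn2r80 to Vmn2r83 (78613037 to 78947045, 4 genes, 16 probes) averaged 0.18 ± 0.10, from -0.05 in Mth1KO 2 to 0.37 in Ogg1KO 2. The 3 smallest clusters rested on 2 to 4 probes each. Of these, Vmn2r88 and Vmn2r89 on chromosome 14 averaged 0.39 ± 0.32, from -0.24 in WT_Dmt1 2 to 0.96 in Ogg1KO 2. Their kidney signal was well above background on 9 and 14 of 20 arrays, the filter on dim probes left no value, and with normexp the mean was -0.0421. Vmn1r45 and Vmn1r51 averaged 0.17 ± 0.14 and Vmn2r84 to Vmn2r87 0.06 ± 0.17.

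Of the genes that stood alone, Vmn2r120 (3 probes) averaged 0.21 ± 0.17 and was above 0 in 18 of 20 tumours. Vmn2r118 averaged 0.04 ± 0.20, and Vmn2r18 and Vmn2r52 averaged -0.04 ± 0.25 and -0.04 ± 0.22, each with 2 probes.

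**Figure D4:**
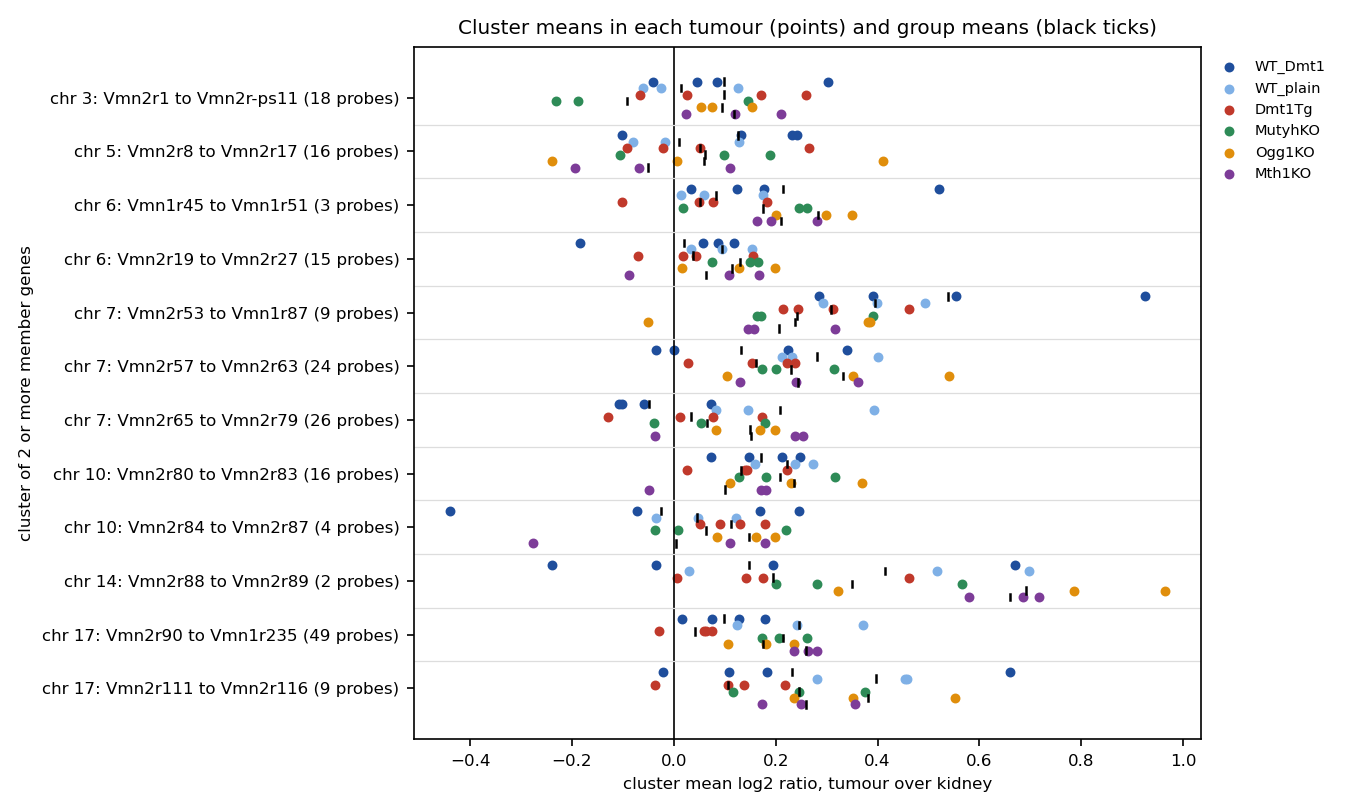
Mean log2 ratio of tumour over kidney (x axis) of each of the 12 clusters (y axis, with chromosome and number of probes) in each tumour (points, coloured by group) and the mean of each group (black ticks). Points of all groups overlap in most clusters. The points farthest from the rest belong to WT_Dmt1 1 (0.92 in Vmn2r53 to Vmn1r87, -0.44 in Vmn2r84 to Vmn2r87). In the cluster with 2 probes they belong to WT_Dmt1 2 (-0.24) and Ogg1KO 2 (0.96).

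Against the autosomal probes within 1 Mb on either side, 11 of 12 clusters were higher, and the median over clusters of the difference was 0.19. The widest gap was at Vmn2r80 to Vmn2r83, whose flanks averaged -0.32, a difference of 0.49 ± 0.23 (SD, n = 20) that was above 0 in 20 of 20 tumours. The gap was 0.36 ± 0.19 at Vmn2r111 to Vmn2r116 and 0.15 ± 0.10 at Vmn2r90 to Vmn1r235, both also above 0 in 20 tumours. The exception was Vmn2r84 to Vmn2r87, whose difference from its flanks was -0.14 ± 0.18. Probes between the members that bear no vomeronasal name were higher than the members in some clusters and lower in others. Such probes averaged 0.23 (13 probes) inside Vmn2r1 to Vmn2r-ps11 against 0.06 for the members, and 0.17 (132 probes) inside Vmn2r65 to Vmn2r79 against 0.08. Inside Vmn2r80 to Vmn2r83 they averaged 0.21 (10 probes) against 0.18, and inside the large cluster of chromosome 17 0.15 (206 probes) against 0.16. Inside Vmn2r111 to Vmn2r116 they averaged 0.14 (32 probes) against 0.26. In Vmn2r53 to Vmn1r87 they stood at -0.25 (40 probes), against 0.33 for the members among them. The gap varied between tumours. At Vmn2r80 to Vmn2r83 it ran from 0.10 to 0.34 in WT_Dmt1 and from 0.72 to 0.91 in WT_plain, without overlap. The mean of the cluster itself did overlap, from 0.07 to 0.25 in WT_Dmt1 and from 0.16 to 0.27 in WT_plain. At Vmn2r1 to Vmn2r-ps11 the gap was above 0 in 12 of 20 tumours. The flank differences had no test. Under normexp their median was 0.04.

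The first comparison of the design asks whether the genotype of the mouse changed the copy number of these genes in its tumours, each genotype being set against the 7 wild-type tumours in 1 limma fit over all genes. Both wild-type sets were pooled as 1 group in that fit, so the difference between them, described below, went into the spread behind each p. The same-day comparisons further on keep the sets apart. No member passed at an adjusted p of 0.05. The counts of members called were 0 of 88 in Dmt1Tg, beside 0% of all 20325 genes, 0 of 88 in MutyhKO, beside 0.00984% (2 genes), 0 of 88 in Ogg1KO, beside 0%, and 0 of 88 in Mth1KO, beside 0%. At an unadjusted p under 0.05, members numbered 3, 3, 2 and 7 in that order, which are 3.41%, 3.41%, 2.27% and 7.95%, beside 4.25%, 8.42%, 8.67% and 8.82% of all genes. The count stayed 0 in every other setting run and with each tumour left out.

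The members' median difference was -0.07 in Dmt1Tg, beside 0.01 over all genes, and members ranged from -0.46 to 0.21. It was 0.01 in MutyhKO beside -0.02, ranging from -0.67 to 0.57, 0.05 in Ogg1KO beside -0.01, ranging from -0.55 to 0.48, and -0.00 in Mth1KO beside -0.03, ranging from -0.66 to 0.82. All 4 comparisons share the 7 wild-type tumours. Against wild-type tumours of the same scan day only, the members' medians were -0.02, -0.02, 0.00 and -0.04 in the same order. Those over all genes were -0.04, 0.06, 0.06 and 0.04. The side of the all-gene median on which members lay thus turned in all 4. No genotype offset is read from these medians.

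The member with the smallest p in each contrast was examined, chosen after the values were seen. Vmn2r81 (chromosome 10, 78714358 to 78736357, 3 probes) stood at -0.43, -0.47 and -0.37 in the 3 Mth1KO tumours, while the wild-type tumours ran from -0.16 through 0.15 to 0.36. The groups did not overlap, with a difference of -0.53 (SE 0.13, limma adjusted p = 0.366). Its first probe, whose kidney signal was well above background on 0 of 20 arrays, stood at -1.38, -1.56 and -1.02 in these 3 tumours. Probe 3, above background on all 20, stood at 0.13, 0.27 and 0.18, and under normexp the difference was 0.07.

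In MutyhKO, Vmn2r55 stood at 0.33, -0.02 and 0.54, while wild type ran from 0.51 through 0.93 to 1.21. The difference was -0.59 (SE 0.20, limma adjusted p = 0.454), with MutyhKO 3 inside the wild-type range, and under normexp it was 0.01. In Dmt1Tg, Vmn2r95 stood at 0.03, -0.00, 0.10 and 0.30 against a wild-type range from 0.25 to 0.50, which gave -0.26 (SE 0.07, limma adjusted p = 1). In Ogg1KO, Vmn1r45 stood at 0.36, 0.29 and 0.23 against wild-type values from 0.03 to 0.20, which gave 0.17 (SE 0.07, limma adjusted p = 0.519). The last pair of groups did not overlap, but none of the 4 differences passed the adjustment over all genes.

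With control tumours restricted to those scanned on the same day, members called again numbered 0 of 88 in Dmt1Tg, beside 0.0148% of all genes, and 0 of 87 in MutyhKO (beside 1.57%, 319 genes), in Ogg1KO (beside 0%) and in Mth1KO (beside 0.172%, 35 genes). Unadjusted, 7, 7, 8 and 4 members were under 0.05, which are 7.95%, 8.05%, 9.20% and 4.6%, beside 12.0%, 15.6%, 11.1% and 11.9% of all genes. The smallest adjusted p by limma among members was 0.0742, for Vmn2r55 in MutyhKO with a difference of -0.80. Vmn2r8 had no value in WT_plain and was not tested there. In the fit over 2392 bins of 1 Mb, 31 of which hold members, 0 of 31 member bins passed in Dmt1Tg, MutyhKO, Ogg1KO and Mth1KO by limma, beside 0% of all bins in each of the 4. Unadjusted, 3, 1, 0 and 1 member bins were under 0.05, beside 103, 133, 81 and 241 of all 2392 bins.

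Cluster means by genotype are given as a description, with no test. The large cluster of chromosome 17 averaged 0.16 ± 0.12 (SD, n = 7) in wild type, 0.04 ± 0.05 (n = 4) in Dmt1Tg, 0.21 ± 0.04 (n = 3) in MutyhKO, 0.175 ± 0.07 (n = 3) in Ogg1KO and 0.26 ± 0.02 (n = 3) in Mth1KO. The 3 Mth1KO tumours, at 0.26, 0.28 and 0.24, lay within the wild-type range of 0.02 to 0.37 and above all 4 Dmt1Tg tumours. The Dmt1Tg tumours, at 0.06, -0.03, 0.08 and 0.06, overlapped WT_Dmt1, scanned on the same day (0.02 to 0.18), and lay below all WT_plain tumours (0.12 to 0.37). In Vmn2r88 to Vmn2r89, Ogg1KO (0.69 ± 0.33) and Mth1KO (0.66 ± 0.07) had the highest group means, but WT_Dmt1 1 reached 0.67 and WT_plain 2, where the kidney signal of Vmn2r88 was not well above background, 0.70. Vmn2r88, which encodes a receptor for haemoglobin, ran from -0.13 (WT_Dmt1 3) to 1.80 (Mth1KO 2) over 19 tumours.

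The second comparison sets the 2 wild-type sets against each other, which share a genotype but not a slide or a scan day. Members passed in the direction that was the rarer one over all genes. By limma over all genes, 7 of 87 members were lower in WT_Dmt1 (8.05%, beside 3.75% of all 20323 genes) and 1 of 87 was higher (1.15%, beside 21.1%). At an unadjusted p, 15 members (17.2%) were under 0.05 beside 37.9% of all genes. The median difference, WT_Dmt1 minus WT_plain, was -0.10 over members and 0.14 over all genes, so relative to the shift of all genes the members lay further down. Of the 85 members with a value in all 7 tumours, 11 had every WT_Dmt1 tumour below every WT_plain tumour, beside 6.83% of all genes, and 2 had every one above, beside 25.5%. Olfactory receptor genes showed 9 and 1 of 54.

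Vmn2r110 (chromosome 17, 20711948 to 20728077, 3 probes) had the largest difference. The WT_Dmt1 tumours stood at -0.32, 0.12, -0.15 and 0.16 and the WT_plain tumours at 0.48, 1.03 and 0.62, without overlap. The difference was -0.76 (SE 0.14, limma adjusted p = 0.00169). The first of its 3 printed probes, with a kidney signal above background on 10 of 20 arrays, stood at 2.29 and 1.74 in WT_plain 2 and 3, whereas the second, above background on all 20, stood at 0.18 and -0.16. In WT_plain 1 only probe 3 had a value. With dim probes left out the difference was -0.30 (limma adjusted p = 0.201), and with normexp -0.25 (limma adjusted p = 0.165).

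Vmn2r73 (chromosome 7, 93018409 to 93018468) rests on its 1 printed probe, whose kidney signal was above background on all 20 arrays. WT_Dmt1 stood at -0.69, 0.05, 0.04 and -0.28 and WT_plain at 0.41, 0.68 and 0.46, which gave -0.74 for the difference (SE 0.14, limma adjusted p = 0.00202). The sets did not overlap, and the difference passed in 29 of 29 other settings, between -0.83 and -0.58. Vmn2r70 in the same cluster (chromosome 7, 92709305 to 92709364, 1 probe), outside the rule for named genes and chosen after its values were seen, did so too. It stood at -0.43, -0.16, 0.08 and 0.04 in WT_Dmt1 and 0.26, 0.51 and 0.48 in WT_plain, a difference of -0.54 (SE 0.14, limma adjusted p = 0.00954).

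Vmn2r111 (chromosome 17, 22697588 to 22709500, 2 probes) stood at 0.47, -0.05, -0.05 and -0.01 in WT_Dmt1 and 1.26, 0.66 and 0.53 in WT_plain, a difference of -0.73 (SE 0.20, limma adjusted p = 0.0152). The value of WT_plain 1 comes from 1 probe, and without that tumour the difference was -0.50 (limma adjusted p = 0.0916). Vmn2r105 (chromosome 17, 20346589 to 20369027, 3 probes) stood at 0.19, 0.14, 0.02 and 0.10 against 1.03, 0.49 and 0.58, a difference of -0.59 (SE 0.15, limma adjusted p = 0.0105). Without WT_plain 1 it was -0.42 (limma adjusted p = 0.0657). Both genes also missed the threshold with normexp, at -0.21 and -0.11, and Vmn2r111 with dim probes left out, at -0.32. That filter left no value for Vmn2r105, whose probes had a kidney signal well above background on 17, 16 and 9 of 20 arrays. In WT_plain 1 and WT_plain 2, 2 of the 3 Vmn2r105 probes had a value.

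Vmn2r108 (chromosome 17, 20602612 to 20615302, 2 probes) was the only one of the 5 genes named by the rule whose sets overlapped, at -0.40, -0.11, -0.43 and -0.35 in WT_Dmt1 and -0.16, 0.80 and 0.09 in WT_plain. The values of WT_plain 1 and WT_plain 2 come from 1 probe each, those of the WT_Dmt1 tumours from 2. The difference was -0.56 (SE 0.19, limma adjusted p = 0.0362), -0.28 without WT_plain 2 (limma adjusted p = 0.238), and 0.85 (limma adjusted p = 0.0528) with the surface patches kept. It also missed the threshold without WT_Dmt1 1, WT_Dmt1 3 or WT_Dmt1 4, at -0.53, -0.53 and -0.55, and with normexp (-0.32), dim probes left out (-0.49), the slide block (-0.53), the replicate block (-0.58) and the shared profile removed (-0.52). The remaining calls, Vmn2r52 and Vmn2r19, were chosen after their values were seen. Vmn2r52 stood at -0.70, -0.02, -0.23 and -0.30 against 0.21, -0.06 and 0.19. Its difference was -0.43 (SE 0.15, limma adjusted p = 0.0403) and missed the threshold in 8 of 29 settings, between -0.46 and -0.30. These were the slide block, the replicate block and leaving out WT_Dmt1 1, WT_Dmt1 3, WT_Dmt1 4, Dmt1Tg 1, WT_plain 1 or WT_plain 3. Vmn2r19 was the member that was higher in WT_Dmt1, at 0.59, 0.42, 0.46 and 0.21 against -0.14, 0.13 and 0.06, a difference of 0.40 (SE 0.12, limma adjusted p = 0.0179) and 0.33 without WT_plain 1 (limma adjusted p = 0.0847).

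**Figure D5:**
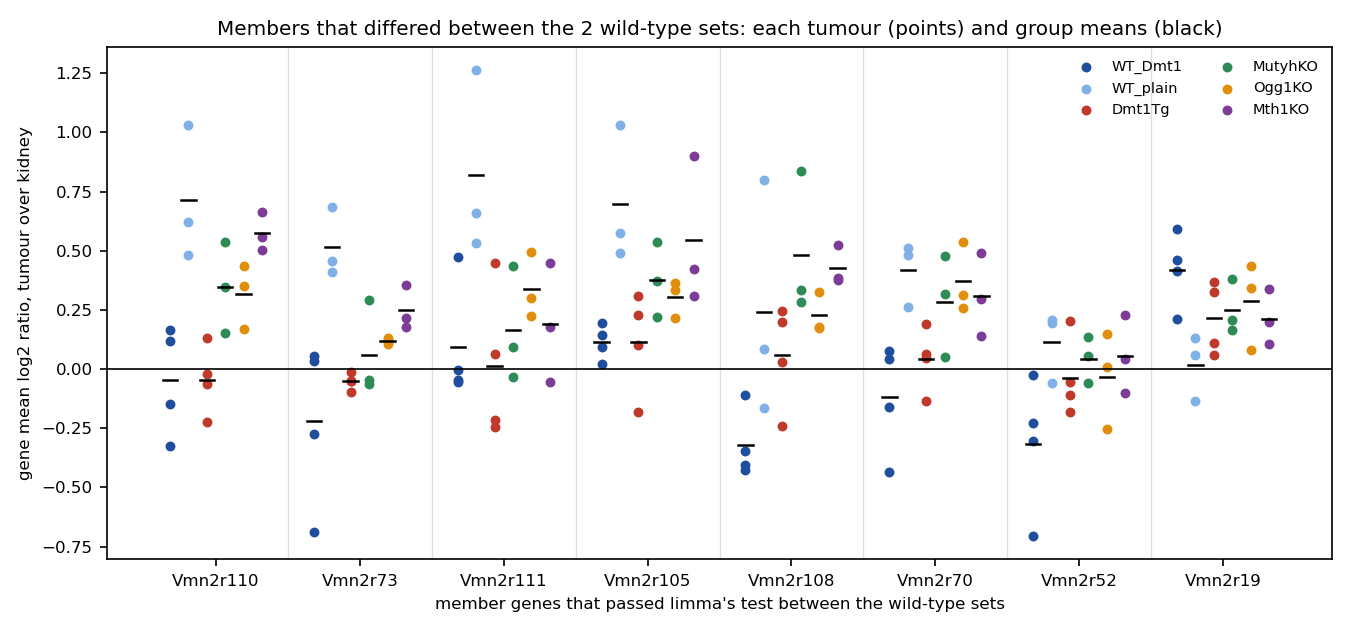
Gene mean log2 ratio of tumour over kidney (y axis) of the members that passed limma's test between the wild-type sets (x axis), in each tumour (points, coloured by group) with group means (black). WT_Dmt1 lies below WT_plain for Vmn2r110, Vmn2r73, Vmn2r111, Vmn2r105 and Vmn2r70 without overlap, the sets overlap for Vmn2r108 and Vmn2r52, and Vmn2r19 is the gene with WT_Dmt1 above.

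The split between the directions moved with the scaling. As reported it was 1 higher and 7 lower, beside 4295 and 763 of all genes. With normexp it was 4 and 4, beside 3591 and 497, and with the patches kept 5 and 6 of 88, beside 5548 and 716. With centring on the mode it was 3 and 7, beside 5019 and 495, and after removing the profile the arrays share 3 and 8, beside 2702 and 1009. With dim probes left out it was 2 and 9 of 53, beside 4250 and 910 of 16786 genes. With slide as a random block it was 1 and 5, beside 3058 and 394. Without WT_plain 1 it was 0 and 5. The difference also moved with base composition: member probes with 30% to 35% G and C had a median of -0.14 and those with 40% to 45% one of 0.10, beside -0.12 and 0.17 over all probes. From 35% to 40%, however, members stood at -0.13 (123 probes) and all probes at 0.02. The part of base composition in the called differences was not tested.

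Over 1 Mb bins, 7 of 31 member bins were higher in WT_Dmt1 by limma (22.6%, beside 27.6% of all bins) and 6 were lower (19.4%, beside 31%), both below the share of all bins. The lower bins lay in 3 clusters. On chromosome 17 the bin from 20 Mb, which holds Vmn2r104 to Vmn2r110 (73 probes, 16 of them members), averaged 0.05 ± 0.08 (SD, n = 4) in WT_Dmt1 and 0.27 ± 0.04 (n = 3) in WT_plain, a difference of -0.22 (SE 0.04, limma adjusted p = 0.000121), and the bin from 18 Mb differed by -0.12 (SE 0.04, limma adjusted p = 0.0114). On chromosome 7 the bins from 92, 93 and 94 Mb, which hold Vmn2r65 to Vmn2r79, differed by -0.13, -0.23 and -0.21 (SE 0.05 each, limma adjusted p = 0.0368, 0.000553 and 0.000791). On chromosome 10 the bin from 129 Mb, with Vmn2r84 to Vmn2r87, differed by -0.21 (SE 0.04, limma adjusted p = 0.000185).

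The higher bins were mostly ones in which few probes are members. The largest difference was 0.25 (SE 0.05, limma adjusted p = 0.00029) in the bin of chromosome 6 from 124 Mb, where 5 of 92 probes read Vmn2r26 and Vmn2r27. Next to it stood the bin of chromosome 17 from 23 Mb with Vmn2r114 to Vmn2r116 (6 of 60 probes, 0.23) and that of chromosome 6 from 90 Mb with Vmn1r51 (1 of 81 probes, 0.23). The members in them need not share the bin's direction: Vmn2r26 averaged -0.12 in WT_Dmt1 and 0.35 in WT_plain. The split moved with the setting in member bins and in all 2392 bins, which stood at 660 higher and 742 lower as reported. With normexp 12 member bins were higher and 0 lower, beside 705 and 414 of all bins, and with the patches kept 12 and 3, beside 910 and 299. With centring on the mode they were 8 and 4, beside 731 and 432, and with the shared profile removed 3 and 5, beside 462 and 825. With the value table they were 8 and 8, beside 659 and 757, and with the slide block 8 and 8, beside 677 and 771.

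Over the whole cluster from Vmn2r65 to Vmn2r79, WT_Dmt1 stood at -0.05 ± 0.08 (SD, n = 4; -0.10, 0.07, -0.06 and -0.11). WT_plain stood there at 0.21 ± 0.16 (n = 3; 0.08, 0.39 and 0.15). In the large cluster of chromosome 17 the sets stood at 0.10 ± 0.07 and 0.25 ± 0.12. In the first of these clusters the sets did not overlap, though narrowly, with WT_Dmt1 2 at 0.0735 and WT_plain 1 at 0.0836. In WT_plain 1 and WT_plain 2, 1 of 3 Vmn2r77 probes and 2 of 4 Vmn2r78 probes in that cluster had a value. In the second cluster WT_plain 3 (0.12) lay among the WT_Dmt1 tumours (0.02 to 0.18). Group means of WT_Dmt1 and WT_plain lay about as far apart, with overlap, in other clusters. They were 0.15 and 0.41 in Vmn2r88 to Vmn2r89, 0.23 and 0.40 in Vmn2r111 to Vmn2r116, and 0.13 and 0.28 in Vmn2r57 to Vmn2r63. In Vmn2r53 to Vmn1r87 the order was the opposite, at 0.54 ± 0.28 and 0.39 ± 0.10, with overlap. It was also the opposite, with overlap, in Vmn1r45 to Vmn1r51 (0.21 and 0.08), Vmn2r8 to Vmn2r17 (0.13 and 0.01) and Vmn2r1 to Vmn2r-ps11 (0.10 and 0.01). On WT_plain arrays the kidney signal of 7 members (Vmn2r4, Vmn2r14, Vmn2r16, Vmn2r58, Vmn2r69, Vmn2r88 and Vmn1r235) was not well above background on any of the 3, so their ratios there divide by a signal near background. None of these 7 is among the members called.

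The other genes of the vomeronasal system were read from lists of 38 genes chosen with earlier results of these data known, 22 of which had probes. Their median was 0.03 and 12 of 22 were above 0, beside 36.1% of all genes. By limma over all genes, 0 of 22 passed in any of the 4 genotype contrasts. Between the wild-type sets 5 of 22 were higher and 3 lower in WT_Dmt1, beside 21.1% and 3.75% of all genes, and nothing particular to the lists is read from these counts. The higher signalling genes, 3 of 6 where 21.1% of all genes were higher, were Gnai2, the G protein subunit of Vmn1r neurons (0.86, SE 0.13, limma adjusted p = 0.000418, 1 probe), Trpc2, the channel that vomeronasal transduction needs (0.46, SE 0.09, limma adjusted p = 0.00173), and Ano1, a calcium-activated chloride channel (0.24, SE 0.08, limma adjusted p = 0.0331). Gnao1, the subunit of Vmn2r neurons, differed by 0.22 (SE 0.09, limma adjusted p = 0.0692).

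Bcl11b, a transcription factor of vomeronasal neuron development, was 1 of 6 wiring and development genes that passed, at 0.57 (limma adjusted p = 0.00582). Of 4 MHC class Ib genes, whose products are found with Vmn2r receptors, H2-M9 was higher (0.70, limma adjusted p = 0.000413). Of 2 formyl peptide receptors, Fpr1 was lower (-0.40, limma adjusted p = 0.011). Of 4 ligand genes, Esp34 (-1.16, limma adjusted p = 0.00894) and Esp36 (-0.82, limma adjusted p = 0.0277), which encode secreted gland peptides, were lower. H2-M9, Fpr1, Esp34 and Esp36 each rest on 1 probe, and Esp36 had a value in only 2 WT_plain tumours. The 3 lower genes lie on chromosome 17, as do the clusters from Vmn2r90 to Vmn2r116 and also H2-M9, which was higher. Against wild-type tumours of its own scan day, Gnai2 was also higher in MutyhKO (0.69, SE 0.14, limma adjusted p = 0.0239), the only one of the 22 to pass there. In that contrast 1.57% of all genes (319 genes) passed. The 1 probe of Gnai2 was below 0 in all 20 tumours, with means of -1.505 in WT_plain and -0.81 in MutyhKO, so higher means less far below 0.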

How the data were processed

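Genomic DNA of 20 mouse mesotheliomas and of kidney was hybridised to dual-colour Agilent 180K arrays. The authors extracted the deposited scanner files with Agilent Feature Extraction (10.7 in the submitters' processing notes, 10.7.1.1 per the file headers). Per the file headers, the processed intensity of a spot in either channel had gone through spatial and multiplicative detrending and dye normalisation. The deposited log ratios are on a log10 scale, red divided by green. The authors' deposited value table holds log2 ratios for 174303 spots and matches the scanner files' ratios, turned to log2, to within 6.29e-07, which settles its scale and direction. No column belonged to another sample (0).

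Of 180880 spots per array, control spots and outlier spots (101 to 685) were left out. Spots in surface patches, where a local median over a window of 21 by 21 spots left the array's level by at least 0.3, were also left out, a choice that an earlier description of these data did not make in its main analysis. Log2 of red over green was averaged per probe (170305 probes) and centred on each array's autosomal median, without loess or quantile normalisation. Means were taken per gene, per 1 Mb bin with at least 3 probes and per cluster. All autosomal genes and all bins were fitted with limma 3.58.1 in R 4.3.3 over 20 tumours (5 genotypes, or 6 groups for the wild-type sets), with Benjamini-Hochberg adjustment over the whole table, and the fit was checked on simulated data. Tables were built with pandas 2.3.3, numpy 2.4.6 and scipy 1.17.1 under Python 3.11.15, and figures with matplotlib 3.10.9. Positions are mm9 as in the files.

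Members, lists and settings were chosen with earlier results of these data known. Named genes are, per contrast, up to 5 members with the largest difference past the adjusted p; the 6 highest and 6 lowest means and the 6 largest ranges among members with at least 2 probes; both ends of each cluster of at least 5 genes; the member with most probes per family; and up to 6 single genes. Alternatives were patches kept, mode centring, normexp (offset 50), a dim-probe filter (71575 probes left out), the value table, same-day controls, slide or replicate number as a block, removal of the shared profile, medians over probes, other probe minimums, flanks of 500 kb, joins at 0.5 and 2 Mb, and each tumour left out.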

Additional observations from a re-analysis of the deposited data

Results flagged for a closer look

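In 6 of 72 groups of tumours examined, each a cluster or named gene within a group, 1 tumour stood far from the others by Dixon's criterion. Chance alone would set such a mark in about 1 of 20 groups. Among the 7 wild-type tumours, WT_Dmt1 1 stood at 0.521 in the cluster from Vmn1r45 to Vmn1r51, with the others between 0.01 and 0.18, and at 0.924 in the cluster from Vmn2r53 to Vmn1r87, with the others between 0.29 and 0.55. WT_Dmt1 1 is the array with the widest spread between neighbouring probes (0.535). WT_Dmt1 4 stood at -0.18 in the cluster from Vmn2r19 to Vmn2r27, with the others between 0.03 and 0.15. WT_plain 2, which has a surface patch, stood at 0.80 for Vmn2r108, with the others between -0.43 and 0.09. Within WT_Dmt1, the first tumour stood at 0.47 for Vmn2r111, with the other 3 between -0.05 and -0.01. Within Dmt1Tg, the second tumour stood at -0.029 in the cluster from Vmn2r90 to Vmn1r235, with the other 3 between 0.06 and 0.08.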

How the results depend on the processing

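The genotype contrasts gave 0 members and 0 member bins in every setting and with each tumour left out (0 to 0). With normexp the median gene mean was -0.0017 (0.16 as reported), the median cluster mean -0.0214 (0.16), 43 genes (74) and 5 clusters (12) were above 0, and the median over clusters minus flanks was 0.0368 (0.19). It also turned the sign of Vmn2r55 in MutyhKO (0.011), Vmn2r81 in Mth1KO (0.0712) and the clusters Vmn2r1 to Vmn2r-ps11 (-0.0712), Vmn2r8 to Vmn2r17 (-0.0502), Vmn2r19 to Vmn2r27 (-0.0769), Vmn2r65 to Vmn2r79 (-0.0472), Vmn2r80 to Vmn2r83 (-0.033), Vmn2r88 to Vmn2r89 (-0.0421) and Vmn2r90 to Vmn1r235 (-0.0098). Keeping the patches turned Vmn2r108 between the wild-type sets (0.85) and Vmn2r8 to Vmn2r17 (-0.0017). Removing the shared profile, which by construction takes out what the arrays have in common, left 0.0127 for the gene mean, 0.0134 for the cluster mean and 0.0166 over the flanks, and 8 of 31 bins between the wild-type sets (13). The filter on dim probes left fewer genes, 47 above 0, and no value for Vmn2r88 to Vmn2r89, and at least 3 probes left 4 calls between the wild-type sets (8). The cause of the other changes was not tested.

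With each tumour left out, the wild-type sets gave 5 (without WT_plain 1) to 10 genes and 10 to 15 bins, the gene mean was 0.15 to 0.18, the genes above 0 numbered 72 to 75, the cluster mean was 0.16 to 0.17, the clusters above 0 numbered 12 to 12 and above their flanks 11 to 11, and the flank difference was 0.18 to 0.20. Clusters joined at 0.5 and 2 Mb numbered 23 and 16 (19). With the replicate number as a block the wild-type sets gave 7 genes and 14 bins and the genotypes 0. No sign was seen that the numbers mark a pairing, though these correlations cannot exclude one. Over 46 pairs of tumours with the same number the median correlation was -0.02, with 7 over 0.1. Over 120 pairs with different numbers it was -0.01, with 21 over 0.1. Few probes a gene, and kidney signal near background for many of them, limit the values of single members.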
